A study of Homo sapiens with 9 samples.

Results

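Replication-dependent histone genes were taken as every row of the deposited gene table whose symbol starts with HIST1H, HIST2H, HIST3H or HIST4H. The rule found 63 of 17637 genes, which are 5 genes of the linker histone H1 and 16, 17, 12 and 13 genes of the core histones H2A, H2B, H3 and H4. A filter on low counts left 52 of them for testing (4 H1, 15 H2A, 15 H2B, 10 H3 and 8 H4 genes). The other 11 (HIST1H1T, HIST1H2AB, HIST1H2BB, HIST1H2BM, HIST1H3A, HIST3H3, HIST1H4A, HIST1H4F, HIST1H4G, HIST1H4J and HIST1H4L) had means of 0.0038 to 0.152 counts per 1000000 (CPM) over all libraries and enter no test.

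These genes supply the histones that package newly made DNA, and most are transcribed while the cell copies its genome. Their messages are unusual in that they typically end not in a poly(A) tail but just after a short RNA hairpin, the histone stem-loop, which the stem-loop binding protein SLBP holds while a small nuclear ribonucleoprotein containing LSM10 and LSM11 directs the cut. Several histone genes are also known to make longer transcripts that run past the stem-loop to an ordinary poly(A) signal. Histone genes stand in clusters, many as head-to-head pairs of an H2A and an H2B gene with a shared stretch of DNA between their starts.

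All 9 libraries came from the established human line KOPTK1, of T-cell acute lymphoblastic leukaemia (T-ALL) origin, grown in serum-containing medium, with 3 libraries in each of 3 groups, all labelled wild type in genotype. Cells labelled shControl received a control hairpin, those labelled shDHX15 a lentiviral hairpin against DHX15 (an RNA helicase of the DEAH-box family that acts in splicing), and those labelled shDHX15_MYC the DHX15 hairpin together with the coding region of MYC, a transcription factor gene. There was no group with added MYC and the control hairpin, so an effect of MYC on its own cannot be told apart from one that needs the DHX15 hairpin. The study set out to ask how far MYC acts downstream of DHX15. RNA was selected for poly(A), so that histone messages were read only as far as they carried a tail or were carried over, and a change in the tailed share cannot be told apart from a change in all histone RNA.

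Total counts ran from 42134302 to 59688062 per library. A count of 0 allows up to 3 counts, which is 0.0519 to 0.0708 CPM. All CPM below are scaled by TMM factors, which correct for library composition. DHX15 read 284, 278 and 278 CPM in shControl, against 182, 162 and 156 in shDHX15 and 197, 196 and 192 in shDHX15_MYC, and MYC read 109 to 110, 84.3 to 91.3 and 6922 to 7197 CPM. Both genes went the way the labels say, DHX15 with a log2 fold change of -0.75 ± 0.04 with its hairpin (edgeR adjusted p = 1.04e-09). The 10 T-cell markers were all present, with summed levels of 3137 to 3246, 2591 to 2637 and 1608 to 1632 CPM in the 3 groups in the same order. Markers of other cells moved in the same libraries: 5 myeloid markers summed to 0.363 to 0.867, 0.229 to 0.594 and 4.66 to 5.44 CPM, 3 of 4 B-cell markers to 51.1 to 52.8, 46.4 to 48.9 and 105 to 109 CPM, and 6 markers of adherent or packaging cells to 20.9 to 22.3, 13.7 to 15.1 and 39.0 to 39.3 CPM. None of these markers was at 0 in all 9 libraries. Their part in the histone results was not tested.

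Sequences that bear on how a poly(A)-selected library can read a histone gene are shown first. The histone stem-loop (a stem of 6 base pairs and a loop of 4 bases, searched by that name on the transcript strand in GENCODE release 29) was found in a transcript of 28 of the 63 genes, against 1.64% of 83047 other protein-coding transcripts. For 30 of the 35 genes without a match, the only annotated transcript starts at ATG and ends at a stop codon, so that its 3′ end is not in the annotation. A poly(A) signal (AATAAA or ATTAAA, transcript strand) lay within the last 40 bases of a transcript of 18 of the 63 genes. Of the other protein-coding transcripts 42.9% had one, a share counted per transcript and not per gene. In histone transcripts with a stem-loop, only signals past it were counted. The lines below give 30 bases around each stem-loop (S, the 16 bases of stem and loop in capitals) and each poly(A) signal (P, AATAAA in capitals), 5′ to 3′ on the transcript strand, for genes of 3 classes whose counts differed between groups.
HIST1H2AG S (chr6:27133508-27133537, plus strand): aaccaacGGCTCTTTTCAGGGCCacccacg
HIST1H2AG P (chr6:27135257-27135286, plus strand): gcctaaattcatAATAAAgtgaaatgttca
HIST2H2AA3 S (chr1:149842216-149842245, minus strand): ctcaaaaGGCTCTTTTCAGAGCCacccacg
HIST2H2AA3 P (chr1:149842192-149842221, minus strand): cccacgttttcaAATAAAagagttgttaat
HIST2H2AA4 S (chr1:149851567-149851596, plus strand): ctcaaaaGGCTCTTTTCAGAGCCacccacg
HIST2H2AA4 P (chr1:149851591-149851620, plus strand): cccacgttttcaAATAAAagagttgttaat
HIST1H2BH S (chr6:26252048-26252077, plus strand): acccaaaGGCTCTTTTCAGAGCCacttaat
HIST1H2BH P (chr6:26253677-26253706, plus strand): aaataattttttAATAAAaggtttttttaa
HIST1H4I S (chr6:27139647-27139676, plus strand): ctaaaaaGGCCCTTTTTAGGGCCcctaagc
HIST1H4E S (chr6:26204994-26205023, plus strand): aatcaaaGGCCCTTTTCAGGGCCgcccaca
HIST1H4E P (chr6:26206004-26206033, plus strand): tctccctctgaaAATAAAgtctttgttact

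Coordinates are GRCh38. HIST2H2AA3 and HIST2H2AA4 have the same letters at both sites. The form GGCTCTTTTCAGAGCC occurred in transcripts of 15 genes, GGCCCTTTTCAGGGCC and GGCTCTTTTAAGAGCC in 5 genes each, and the forms of HIST1H2AG and HIST1H4I in 1 gene each. In HIST1H2AG the stem-loop starts at base 474 of a transcript of 2250 bases and the poly(A) signal at base 2228, whereas in HIST2H2AA3 they start at bases 499 and 528 of 549. The annotated transcript of HIST1H4I runs past its stem-loop but has no such signal in its last 40 bases, and none is printed for it.

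**Figure D1:**
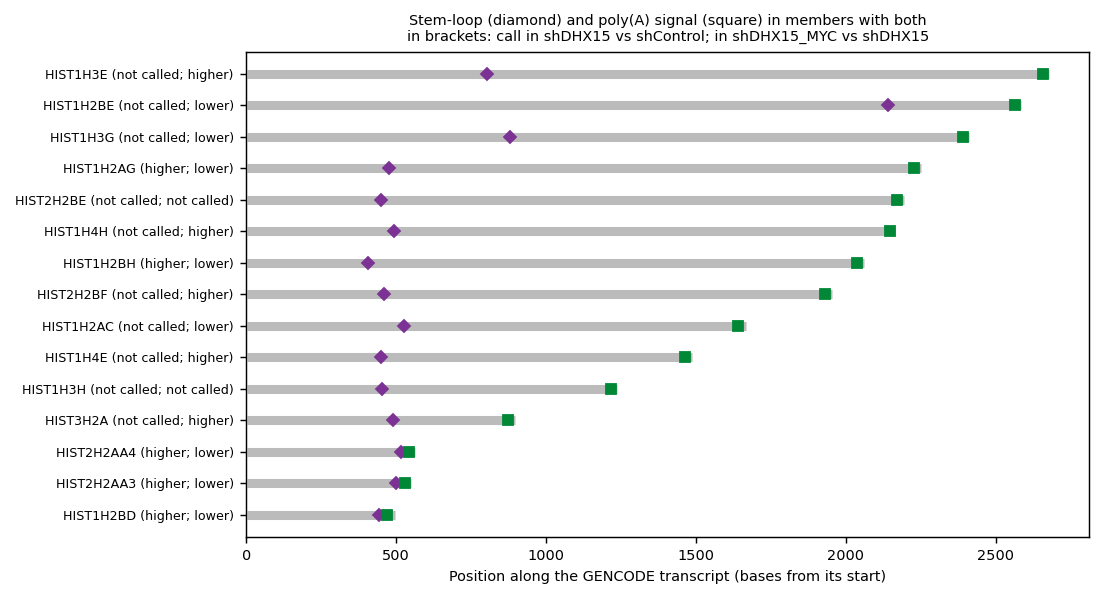
Position of the stem-loop (diamond) and of the poly(A) signal (square), in bases from the transcript start, for the 15 histone genes with both features in 1 GENCODE transcript (grey bar, to scale). Positions range from transcripts of 496 bases (HIST1H2BD), where the features lie side by side, to 2679 bases (HIST1H3E), and calls in the named comparisons stand in brackets.

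Upstream DNA was read from RefSeq promoters (GRCh38.p14), which matched 58 of the 63 genes. Motifs were searched on both strands in the 250 bases before each start. CCAAT, the letters bound by the factor NF-Y, was in 50 of the 58 promoters against 32% of 35116 RefSeq promoters, and in 3 of 11 for H4 genes but in every promoter of the other classes. TATAAA was in 39 of 58 against 10.7%. ATTTGCAT, the octamer bound by POU2F1, was in 10 of 15 H2A and 13 of 17 H2B promoters and in no promoter of the other classes, against 1.63% of all promoters. Head-to-head H2A and H2B partners have starts 193 to 247 bases apart, so their windows overlap and 1 match can count for both genes. A match is a description and not a binding site. Upstream bases are shown for the pair whose members both rose with the DHX15 hairpin, for the near-identical H2A genes and for the most highly read gene, on the strand of the named gene, 5′ to 3′, with the 3 motifs and their reverse complements in capitals (in 1 run each of the HIST1H2AG and HIST1H2BK sequences, TATAAA overlaps its own complement).
HIST1H2AG, the 247 bases up to its start and back to that of HIST1H2BJ (chr6:27132796-27133042, plus strand): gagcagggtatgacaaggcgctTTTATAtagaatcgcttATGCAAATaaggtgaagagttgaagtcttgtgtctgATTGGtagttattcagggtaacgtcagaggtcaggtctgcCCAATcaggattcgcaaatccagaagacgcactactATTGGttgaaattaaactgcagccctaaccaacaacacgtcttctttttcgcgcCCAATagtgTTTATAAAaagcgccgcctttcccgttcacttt
HIST2H2AA3, 250 bases before the start (chr1:149842751-149843000, minus strand): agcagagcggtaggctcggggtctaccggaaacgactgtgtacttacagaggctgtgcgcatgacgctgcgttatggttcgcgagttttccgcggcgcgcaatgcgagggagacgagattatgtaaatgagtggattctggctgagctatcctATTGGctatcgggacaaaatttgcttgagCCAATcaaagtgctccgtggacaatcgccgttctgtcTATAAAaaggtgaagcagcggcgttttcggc
HIST1H2BK, 250 bases before the start (chr6:27146856-27147105, minus strand): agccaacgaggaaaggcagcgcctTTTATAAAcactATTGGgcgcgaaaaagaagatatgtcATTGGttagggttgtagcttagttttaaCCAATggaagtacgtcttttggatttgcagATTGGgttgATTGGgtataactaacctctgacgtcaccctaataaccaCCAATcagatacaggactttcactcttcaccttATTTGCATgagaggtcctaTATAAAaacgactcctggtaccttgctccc

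HIST2H2AA3 and HIST2H2AA4 could not be told apart by these upstream bases either: with the starts set 1 base apart, 0 of 249 bases differed. The last 549 bases of HIST2H2AA4 (564 bases) were also identical to the whole of HIST2H2AA3. The printed HIST2H2AA3 bases hold no ATTTGCAT, while the pair HIST1H2BJ/HIST1H2AG and HIST1H2BK hold 1 each.

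Histone genes were read at low levels in these poly(A)-selected libraries. Summed over all 63 genes they reached 80.6 ± 1.44 CPM with the control hairpin, 113 ± 2.87 with the DHX15 hairpin and 87.7 ± 2.46 with MYC added (SD, n = 3), and 24 genes had a mean of at least 1 CPM. Per kilobase of annotated exon, the scale on which genes can be compared, HIST1H2BK stood highest in shControl at 25.1 CPM, followed by HIST1H4K at 12.1, HIST1H1C at 9.43, HIST2H2AC at 9.31 and HIST2H2AA4 at 4.45. Annotated lengths differ in whether they hold the untranslated parts, which limits that order. HIST1H1T and HIST3H3, genes known mainly from the testis, averaged 0.011 and 0.113 CPM over all libraries.

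With the DHX15 hairpin, histone counts moved upward or did not pass the test. Of the 52 tested genes, 10 rose and 0 fell in shDHX15 against shControl (edgeR quasi-likelihood test, adjusted p under 0.05 over all 15309 genes tested), where 22% of all tested genes rose, 23% fell and 45% did either. The share of histone genes that rose is thus near that of all genes, while no histone gene fell. The 10 were 3 H2A genes (HIST1H2AG, HIST2H2AA3 and HIST2H2AA4), 6 H2B genes (HIST1H2BD, HIST1H2BH, HIST1H2BI, HIST1H2BJ, HIST1H2BK and HIST1H2BN) and the H4 gene HIST1H4I, and no H1 or H3 gene was called. The median log2 fold change of the 52 genes was 0.44 against -0.0047 for all tested genes, and 43 of the 52 had a positive value, including all 10 H3 and all 4 H1 genes. In such bulk RNA, a change in the share of cells in S phase and a change in histone RNA per cell cannot be told apart. Ranges did not overlap between the groups for 20 genes that were higher and 1 (HIST1H2AC) that was lower, against 24.4% and 26.6% of all genes. The count of genes that rose ran from 7 to 12 when 1 library was left out, being lowest without shControl replicate 3, and 1 gene, HIST2H2AC, fell without shControl replicate 2 or without shDHX15 replicate 1.

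**Figure D2:**
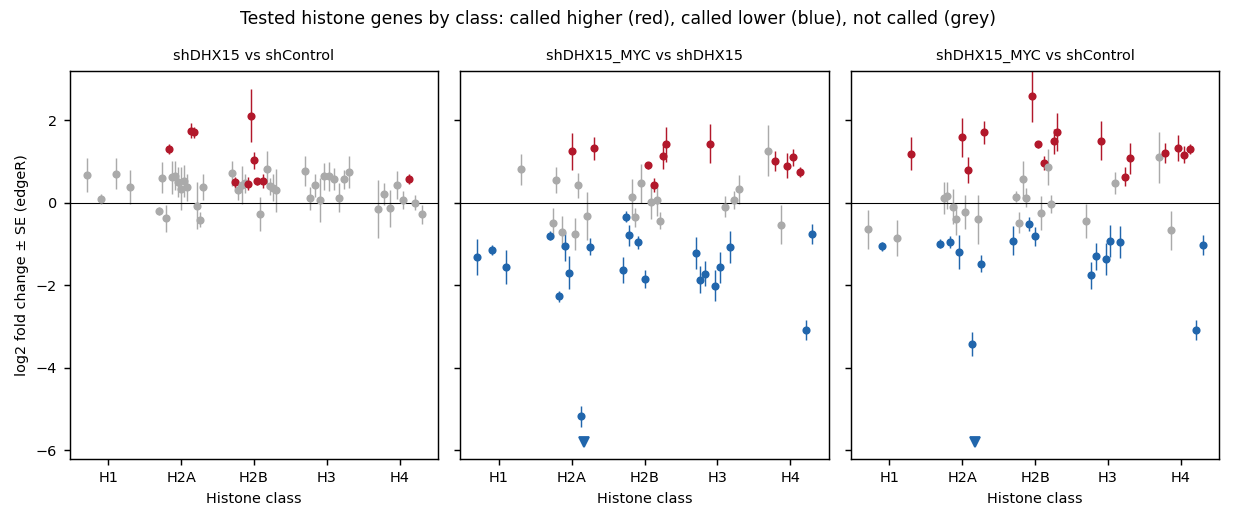
Log2 fold change ± SE from edgeR for each of the 52 tested histone genes by class in the 3 comparisons, called higher in red, called lower in blue and not called in grey. The left panel holds 10 red and 0 blue points, and the triangle at the bottom of the other panels stands for HIST2H2AA4, which had 0 counts in shDHX15_MYC.

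Adding MYC to the DHX15 hairpin moved histone genes in both directions. In shDHX15_MYC against shDHX15, 11 of the 52 rose and 23 fell (edgeR), where 42.1% and 42.6% of all tested genes did so and 84.7% did either. The 6 H3 genes HIST1H3B, HIST1H3C, HIST1H3D, HIST1H3F, HIST1H3G and HIST1H3I fell and HIST1H3E rose, 3 of 4 H1 genes fell and none rose, and 7 H2A genes fell and 2 rose. H2B genes split into 4 that rose and 5 that fell, and H4 genes into 4 that rose (HIST1H4C, HIST1H4E, HIST1H4H and HIST1H4I) and 2 that fell (HIST1H4K and HIST4H4). The median log2 fold change was -0.47 over the 52 genes and 0.0058 over all genes, and by class it was -1.24 in H1, -0.76 in H2A, 0.017 in H2B, -1.14 in H3 and 0.82 in H4. Medians were the same to 2 decimals with HIST2H2AA4, which had no counts in shDHX15_MYC, set at its counting limit. Ranges did not overlap for 10 genes that were higher and 25 that were lower, against 42.4% and 42.6% of all genes.

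Against the control hairpin, the libraries with both DHX15 hairpin and MYC had 16 histone genes that rose and 17 that fell of 52 (edgeR), where 42% and 42.5% of all tested genes did so and 84.5% did either. With total-count scaling the counts were 20 and 13. H2B genes rose more often than they fell (5 and 3), as did H4 genes (4 and 2), while H2A and H3 genes fell in 6 and 5 cases and rose in 3 each. Of the 4 tested H1 genes 1 rose and 1 fell. The median log2 fold change was -0.16 over the 52 genes and 0.017 over all genes. Ranges did not overlap for 15 genes that were higher and 18 that were lower, against 43.5% and 43.6% of all genes (87.2% in either direction). Of the 10 genes that rose with the hairpin, 3 rose further when MYC was added (HIST1H2BK, HIST1H2BN and HIST1H4I), 6 fell (HIST1H2AG, HIST1H2BD, HIST1H2BH, HIST1H2BJ, HIST2H2AA3 and HIST2H2AA4) and HIST1H2BI did not pass. Both comparisons use the same shDHX15 libraries, so chance highs there appear in both.

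Among the H2A genes, HIST1H2AG (chr6:27133042-27135291, plus strand) read 3.80, 3.19 and 3.48 CPM in the control libraries, 8.34, 9.34 and 8.18 with the hairpin and 1.71, 2.09 and 1.58 with hairpin and MYC. The 3 groups did not overlap, with shDHX15 highest and shDHX15_MYC lowest. The log2 fold change was 1.31 ± 0.12 (SE) with the DHX15 hairpin (edgeR adjusted p = 2.77e-07), -2.26 ± 0.13 on adding MYC (adjusted p = 3.34e-11) and -0.96 ± 0.14 for both against the control (adjusted p = 8.89e-06). It encodes a core H2A protein and is not among the genes that share sequence with another locus, as described further down.

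The near-identical genes HIST2H2AA3 (chr1:149842188-149842736, minus strand) and HIST2H2AA4 (chr1:149851061-149851624, plus strand) gave the highest fold changes of the class. HIST2H2AA3 read 1.69, 1.84 and 2.43 CPM in shControl, against 7.59, 6.45 and 6.06 in shDHX15 and 0.211, 0.248 and 0.0857 in shDHX15_MYC. HIST2H2AA4 read 2.36, 2.48 and 2.69 CPM, then 8.86, 7.58 and 8.10, and had 0 counts in all 3 shDHX15_MYC libraries. No groups overlapped for either gene. With the DHX15 hairpin they rose by 1.75 ± 0.18 and 1.70 ± 0.13 on the log2 scale (edgeR adjusted p = 5.36e-07 and 1.13e-07). On adding MYC, HIST2H2AA3 had a log2 fold change of -5.18 ± 0.26 (edgeR adjusted p = 2.42e-12), and HIST2H2AA4 was at least 127-fold lower than in shDHX15 and at least 39.0-fold lower than in shControl, taking 3 counts per library as the limit of a count of 0. Since the sequences are identical, their split between the loci is uncertain. The sum of both, which does not depend on that split, was 4.49 ± 0.56 CPM with the control hairpin, 14.9 ± 1.36 with the DHX15 hairpin and 0.182 ± 0.085 with MYC (SD, n = 3). Across the whole table, genes that share most of their sequence with another locus were read lower in shDHX15_MYC, with a median log2 fold change of -2.82 against shDHX15 at a share of at least 0.8. The part of that shift in the falls of this pair, and in the sum and the bounds, was not tested.

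None of the other H2A genes was called higher with the hairpin. HIST1H2AC read 6.67, 7.29 and 7.12 CPM in the control libraries, 6.09, 6.02 and 6.32 with the hairpin and 3.36, 3.5 and 3.75 with hairpin and MYC, and HIST2H2AC read 4.36, 2.78 and 3.75, then 3.04, 2.49 and 2.71, then 0.971, 1.53 and 1.41 CPM. Both were lowest with MYC, without overlap with the other groups. HIST1H2AC had log2 fold changes of -0.19 ± 0.10 with the hairpin (edgeR adjusted p = 0.124) and -0.80 ± 0.11 on adding MYC (adjusted p = 1.71e-06), and HIST2H2AC of -0.41 ± 0.19 (adjusted p = 0.0911) and -1.07 ± 0.21 (adjusted p = 0.000145). HIST3H2A, which stands in the small HIST3 cluster, read 0.889, 0.661 and 0.768 CPM in shControl, against 0.998, 0.588 and 1.48 in shDHX15 and 2.95, 2.13 and 2.48 in shDHX15_MYC. It was highest with MYC, without overlap, and rose by 1.32 ± 0.27 on adding it (edgeR adjusted p = 0.000261). HIST1H2AE, at 0.889, 1.42 and 0.810, then 0.915, 0.519 and 0.975, then 0.802, 1.41 and 1.29 CPM, had overlapping ranges in every comparison and passed no test. The remaining 8 tested H2A genes averaged 0.269 to 0.889 CPM. On adding MYC, HIST1H2AJ and HIST1H2AI fell by 1.69 ± 0.40 and 1.06 ± 0.36 on the log2 scale (edgeR adjusted p = 0.000756 and 0.0108), HIST1H2AK rose by 1.25 ± 0.45 (adjusted p = 0.0159), and the other 5 were not called.

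**Figure D3:**
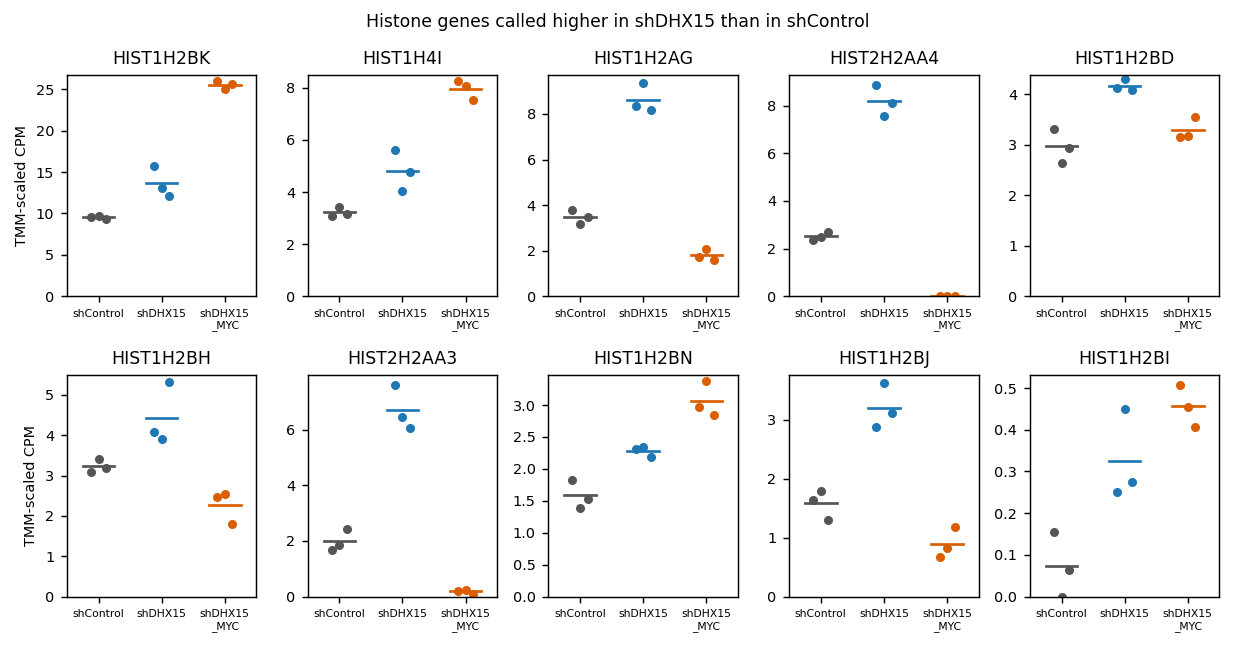
TMM-scaled CPM in each library (points) and group mean (line) for the 10 histone genes that rose in shDHX15 against shControl, each panel with its own axis from 0. HIST2H2AA4 sits at 0 in the 3 shDHX15_MYC libraries, while HIST1H2BK is highest there, at 25 to 26 CPM.

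Among the H2B genes, whose products pair with H2A, HIST1H2BK (chr6:27146418-27146798, minus strand) was the most highly read. It gave 9.54, 9.75 and 9.36 CPM in the control libraries, 15.7, 13.1 and 12.1 with the hairpin and 26, 25 and 25.7 with hairpin and MYC. The groups stepped up without overlap, by 0.52 ± 0.09 on the log2 scale with the hairpin (edgeR adjusted p = 0.000125) and by a further 0.90 ± 0.08 with MYC (adjusted p = 1.05e-08). A share of 0.333 of its sequence is also found in H2BFS, so its count is uncertain to that extent. Its mean over all libraries was 16.3 CPM, above that of every other histone gene.

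HIST1H2BJ (chr6:27125897-27132750, minus strand), the head-to-head partner of HIST1H2AG, read 1.65, 1.79 and 1.30 CPM in shControl, against 2.87, 3.62 and 3.12 in shDHX15 and 0.675, 0.828 and 1.18 in shDHX15_MYC. It followed its partner, highest with the hairpin alone and lowest with MYC, without overlap. Its log2 fold changes were 1.02 ± 0.21 with the hairpin (edgeR adjusted p = 0.000658) and -1.84 ± 0.22 on adding MYC (adjusted p = 5.17e-07).

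HIST1H2BD and HIST1H2BH rose with the hairpin as well and fell on adding MYC. HIST1H2BD read 3.31, 2.64 and 2.94 CPM, then 4.12, 4.31 and 4.09, then 3.14, 3.17 and 3.56, and HIST1H2BH read 3.09, 3.40 and 3.2, then 4.08, 3.91 and 5.32, then 2.47, 2.55 and 1.80 (shControl, shDHX15 and shDHX15_MYC). For both, shDHX15 lay above the other groups without overlap. The rises were 0.49 ± 0.13 (edgeR adjusted p = 0.00622) and 0.45 ± 0.16 (adjusted p = 0.0274). On adding MYC the log2 fold changes were -0.34 ± 0.13 (edgeR adjusted p = 0.0218) for HIST1H2BD and -0.96 ± 0.16 (adjusted p = 3.53e-05) for HIST1H2BH. The rise of HIST1H2BH was not called without shControl replicate 1 or 3 or shDHX15 replicate 3 (adjusted p up to 0.156), and the fall of HIST1H2BD was not called by DESeq2, with total-count scaling, with a filter at 1 CPM or without shDHX15 replicate 2 or shDHX15_MYC replicate 1 or 2 (adjusted p up to 0.302).

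HIST1H2BN and HIST1H2BI were higher than shControl in both other groups. HIST1H2BN read 1.82, 1.39 and 1.54 CPM in the control libraries, 2.31, 2.34 and 2.18 with the hairpin and 2.98, 3.37 and 2.85 with hairpin and MYC, rising by 0.52 ± 0.17 (edgeR adjusted p = 0.0207) and by a further 0.43 ± 0.16 (adjusted p = 0.0204). Its exons overlap those of HIST1H2AK on the other strand and HIST1H2AL on the same strand, so their reads cannot be told apart with certainty. HIST1H2BI was barely read, at 0.156, 0 and 0.064 CPM, then 0.250, 0.450 and 0.276, then 0.506, 0.455 and 0.407. Its rise of 2.11 ± 0.65 with the hairpin (edgeR adjusted p = 0.0138) rests on 7, 0 and 3 control counts. Neither rise with the hairpin was called without shControl replicate 2 or 3 or without shDHX15 replicate 2 (adjusted p from 0.0502 to 0.0727), and the rise of HIST1H2BN with MYC was not called without shDHX15 replicate 3 or shDHX15_MYC replicate 2 (adjusted p up to 0.0900).

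H2B genes not called with the hairpin included HIST2H2BE, HIST1H2BE, HIST1H2BG and HIST1H2BC. HIST2H2BE read 2.00, 1.75 and 1.41 CPM in shControl, against 2.25, 2.49 and 2.04 in shDHX15 and 1.39, 2.11 and 1.5 in shDHX15_MYC. HIST1H2BE read 1.49, 2.17 and 1.64, then 2.45, 2.32 and 1.78, then 0.739, 1.59 and 1.46. HIST1H2BG read 1.25, 1.04 and 1.28, then 1.66, 1.70 and 1.59, then 0.950, 1.53 and 1.39. In all 3 the mean was highest in shDHX15, and the shDHX15 and shControl ranges overlapped for HIST1H2BE but not for HIST2H2BE or HIST1H2BG. HIST1H2BE fell on adding MYC (log2 fold change -0.79 ± 0.26, edgeR adjusted p = 0.0088), a call lost without shDHX15_MYC replicate 1 (adjusted p = 0.0542). HIST1H2BC, the partner of HIST1H2AC, read 0.578, 0.755 and 0.512 CPM, then 1.04, 1.00 and 0.975, then 0.253, 0.373 and 0.343. It had a log2 fold change of 0.71 ± 0.30 with the hairpin (edgeR adjusted p = 0.062) and fell by 1.63 ± 0.32 on adding MYC (adjusted p = 0.000159). HIST2H2BF read 0.689, 0.425 and 0.533 CPM, then 0.416, 0.830 and 0.869, then 1.71, 1.45 and 1.48, and rose with MYC by 1.12 ± 0.30 (edgeR adjusted p = 0.00213), though its exons overlap FCGR1A on the other strand and a share of 0.235 of its sequence lies elsewhere too.

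H3 genes encode a core histone whose tail carries many of the known marks. HIST1H3H read 0.845, 1.60 and 1.13 CPM in the control libraries, 2.29, 1.35 and 1.67 with the hairpin and 1.37, 1.66 and 1.93 with hairpin and MYC. HIST1H3J read 0.867, 1.30 and 0.896, then 1.41, 1.57 and 1.53, then 1.81, 1.55 and 1.35. Both had their lowest mean in shControl. Neither was called with the hairpin (log2 fold changes 0.57 ± 0.27 and 0.57 ± 0.23, edgeR adjusted p = 0.0952 and 0.0595), and both passed in some alternatives, HIST1H3H without shControl replicate 2 (adjusted p = 0.031) and HIST1H3J with total-count scaling (adjusted p = 0.036) among them. HIST1H3J overlaps exons of HIST1H2AM on the same strand.

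The genes HIST1H3C, HIST1H3F, HIST1H3D and HIST1H3B fell on adding MYC. HIST1H3C read 1.47, 2.5 and 1.30 CPM in shControl, against 1.87, 2.01 and 1.76 in shDHX15 and 0.380, 0.331 and 0.835 in shDHX15_MYC, so that the libraries with MYC lay below all others. Its log2 fold change on adding MYC was -1.87 ± 0.33 (edgeR adjusted p = 5.1e-05). HIST1H3F read 0.845, 0.802 and 0.874, then 1.66, 1.25 and 1.02, then 0.127, 0.455 and 0.386 CPM. HIST1H3D read 0.712, 0.897 and 1.00, then 1.04, 1.30 and 1.14, then 0.274, 0.331 and 0.450. Both were again lowest with MYC without overlap, at log2 fold changes of -2.01 ± 0.37 (edgeR adjusted p = 7.3e-05) and -1.72 ± 0.31 (adjusted p = 6.29e-05), and HIST1H3D shares exon bases with another annotated gene on the same strand. HIST1H3B read 0.311, 0.897 and 0.554, then 1.25, 0.969 and 0.784, then 0.317, 0.497 and 0.471 CPM, with a log2 fold change of -1.22 ± 0.38 (edgeR adjusted p = 0.00639). HIST1H3E went the other way, from 0.146, 0.381 and 0.551 CPM in shDHX15 to 0.422, 1.39 and 1.11 in shDHX15_MYC, a rise of 1.43 ± 0.46 (edgeR adjusted p = 0.00866) with overlapping ranges.

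H4 genes, whose protein is the same for nearly all loci, had higher counts with MYC in 4 of 8 tested cases. HIST1H4I (chr6:27138588-27139881, plus strand) read 3.07, 3.42 and 3.16 CPM in the control libraries, 5.60, 4.03 and 4.77 with the hairpin and 8.25, 8.07 and 7.54 with hairpin and MYC. The groups stepped up without overlap, by 0.57 ± 0.13 with the hairpin (edgeR adjusted p = 0.0018) and by a further 0.73 ± 0.12 with MYC (adjusted p = 2.19e-05). HIST1H4H read 1.00, 1.09 and 1.11, then 1.19, 1.04 and 1.12, then 2.15, 2.11 and 2.89 CPM, and HIST1H4C read 1.40, 0.684 and 0.960, then 0.936, 1.38 and 1.19, then 2.24, 2.32 and 2.51. Both overlapped between the first groups and stood clear above them with MYC, by 1.10 ± 0.21 (edgeR adjusted p = 9.72e-05) and 1.00 ± 0.24 (adjusted p = 0.000938). HIST1H4E, at 0.556, 0.519 and 0.597, then 0.582, 0.623 and 1.06, then 1.77, 1.47 and 0.964 CPM, rose by 0.90 ± 0.31 on adding MYC (edgeR adjusted p = 0.0121), a call lost without shDHX15_MYC replicate 1 (adjusted p = 0.0853).

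HIST1H4K and HIST4H4 fell on adding MYC. HIST1H4K (chr6:27831216-27831527, minus strand) read 4.22, 3.56 and 3.58 CPM in shControl, against 4.18, 2.96 and 4.26 in shDHX15 and 0.506, 0.248 and 0.578 in shDHX15_MYC. The libraries with MYC lay far below the others, which overlapped, with a log2 fold change of -3.09 ± 0.25 (edgeR adjusted p = 2.27e-09). All 312 bases of HIST1H4K lie within HIST1H4J (373 bases), which itself read 0.0427 to 0.245 CPM in shControl. The assignment of reads between them is therefore uncertain. HIST4H4, alone on chromosome 12, read 2.53, 2.48 and 3.95, then 1.66, 2.63 and 3.07, then 1.35, 1.66 and 1.37 CPM, and fell by 0.75 ± 0.24 on the log2 scale on adding MYC (edgeR adjusted p = 0.00848).

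HIST1H1C (chr6:26055787-26056428, minus strand) was the only linker histone gene above 1 CPM on average. It read 5.87, 5.90 and 6.40 CPM in the control libraries, 7.28, 6.05 and 6.02 with the hairpin and 2.85, 2.82 and 3.04 with hairpin and MYC. The first groups overlapped (log2 fold change 0.09 ± 0.11, edgeR adjusted p = 0.545), and the libraries with MYC lay below both, at -1.15 ± 0.12 against shDHX15 (adjusted p = 7.16e-08) and -1.06 ± 0.12 against shControl (adjusted p = 2.53e-07). HIST1H1B and HIST1H1D also fell on adding MYC, at log2 fold changes of -1.32 and -1.57. Against shControl neither was called (edgeR adjusted p = 0.2 and 0.0766). HIST1H1E went the other way, at 0.81 ± 0.38 on adding MYC, which was not called (edgeR adjusted p = 0.0552). Against shControl, HIST1H1E rose by 1.19 ± 0.40 (edgeR adjusted p = 0.0108).

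Summed by class, H2A counts were lowest and H2B counts highest with MYC, the latter through 1 gene, HIST1H2BK. H2A genes summed to 24.8 ± 0.48, 40.3 ± 1.22 and 15 ± 0.53 CPM in shControl, shDHX15 and shDHX15_MYC, and H2B genes to 26.3 ± 0.67, 37.7 ± 1.43 and 43.8 ± 1.05 (SD, n = 3). Of the H2A sums, HIST2H2AA3 and HIST2H2AA4 together made up 4.49, 14.9 and 0.182 CPM. Without HIST1H2BK, the other 16 H2B genes summed to 16.7 ± 0.58, 24.1 ± 0.68 and 18.3 ± 1.55 CPM, so that they too were lower with MYC than with the hairpin alone. H3 genes summed to 8.46 ± 1.65, 11.7 ± 0.56 and 7.46 ± 0.56 CPM, H4 genes to 13.6 ± 0.59, 14.9 ± 1.17 and 17.0 ± 0.13, and H1 genes to 7.39 ± 0.47, 8.5 ± 0.56 and 4.37 ± 0.34. Library ranges overlapped between shControl and shDHX15 for H1 and H4 and between shControl and shDHX15_MYC for H3, and not in the other pairs of groups. Sums are led by few genes: without HIST2H2AA3 and HIST2H2AA4, all histone genes summed to 76.1 ± 1.54, 98.3 ± 1.51 and 87.5 ± 2.44 CPM. No test was made of the sums.

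**Figure D4:**
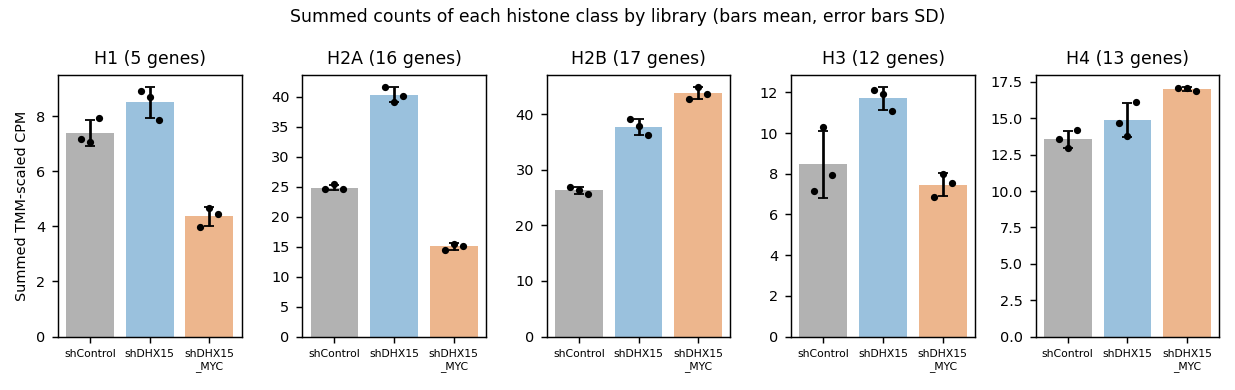
Summed TMM-scaled CPM of each histone class in each library (points), with bars for the mean and error bars for the SD of 3 libraries. H2A is lowest and H2B highest in shDHX15_MYC, at 15 and 43.8 CPM, of which HIST1H2BK makes up 25.5 CPM; the other 16 H2B genes sum to 24.1 CPM in shDHX15 and 18.3 in shDHX15_MYC.

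Sequence shared with another locus moved with the MYC comparisons. A gene was counted as sharing sequence where at least 0.2 of its 100-base windows also occur at another locus, which held for 9 histone genes (HIST1H2AI, HIST1H2AJ, HIST1H2BK, HIST1H4J, HIST1H4K, HIST2H2AA3, HIST2H2AA4, HIST2H2BF and HIST2H3D). Of the 8 tested, 3 rose with the hairpin and 0 fell, and 2 rose and 5 fell on adding MYC. Among the 44 tested genes without shared sequence, the counts were 7 and 0 with the hairpin and 9 and 18 on adding MYC. Of all tested genes, 22% rose and 23% fell with the hairpin, and 42.1% and 42.6% on adding MYC. Over the whole table, 85 tested genes with a share of at least 0.8 had a median log2 fold change of -2.82 on adding MYC and 0.021 with the hairpin, against 0.038 and -0.0040 for 13151 genes with no shared window. Of 78 genes with such a share and at least 10 counts in each of the other 6 libraries, 4, HIST2H2AA4 among them, had 0 counts in all 3 shDHX15_MYC libraries, against 0 of 11659 genes with no shared window. Low values of HIST2H2AA3, HIST2H2AA4 and HIST1H4K with MYC thus come with a like shift of other genes that share sequence, and the part of that shift in their falls was not tested. HIST1H2AG, HIST1H2BJ, HIST1H3C and HIST1H1C fell without such sharing.

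Genes with an annotated poly(A) end made up most of the rises with the hairpin, but many of the other genes have no annotated 3′ end, as given above. Of the 18 genes with a transcript that ends at a poly(A) signal, all tested, 7 rose with the hairpin (HIST1H2AG, HIST1H2BD, HIST1H2BH, HIST1H2BJ, HIST1H2BN, HIST2H2AA3 and HIST2H2AA4), against 3 of the 34 other tested genes. Over all tested genes 22% rose. The medians of the log2 fold change were near each other in the 2 sets of histone genes, at 0.47 and 0.42. Of the 24 genes with a mean of at least 1 CPM, 9 rose, against 1 of 28 tested genes below that level. The 9 were the 7 just named and HIST1H2BK and HIST1H4I, which have no such transcript. The parts of level and of annotated end in these calls were not tested. On adding MYC, the 18 genes split into 6 that rose and 10 that fell, where 42.1% and 42.6% of all tested genes did so. A test of the difference between these sets was not made.

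Position in the clusters was compared as well. On chromosome 6 the histone genes fall into 3 groups, of 31 genes (chr6:26020490-26285638), 5 genes (chr6:27125897-27147515) and 16 genes (chr6:27807444-27893843). In the middle group 4 of 5 genes rose with the hairpin (HIST1H2AG, HIST1H2BJ, HIST1H2BK and HIST1H4I), against 3 of 24 tested in the first and 1 of 13 in the last. Over all tested genes 22% rose. Median log2 fold changes were 0.61 in the middle group, 0.42 in the first and 0.52 in the last. HIST1H2BK, HIST1H4I and HIST1H2AG were also among the more highly read histone genes, at means of 16.3, 5.32 and 4.63 CPM. The part of read level in these calls was not tested. On adding MYC that middle group divided into HIST1H2BJ and HIST1H2AG, which fell, and HIST1H4I and HIST1H2BK, which rose. The HIST2 genes of chromosome 1 had 2 of 7 that rose with the hairpin, both of the near-identical pair. In the HIST3 cluster both tested genes, HIST3H2A and HIST3H2BB, rose on adding MYC, by 1.32 and 1.41 on the log2 scale. HIST3H2BB read 0.178, 0.0944 and 0.171 CPM in shControl, against 0.166, 0.173 and 0.212 in shDHX15 and 0.591, 0.414 and 0.471 in shDHX15_MYC.

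**Figure D5:**
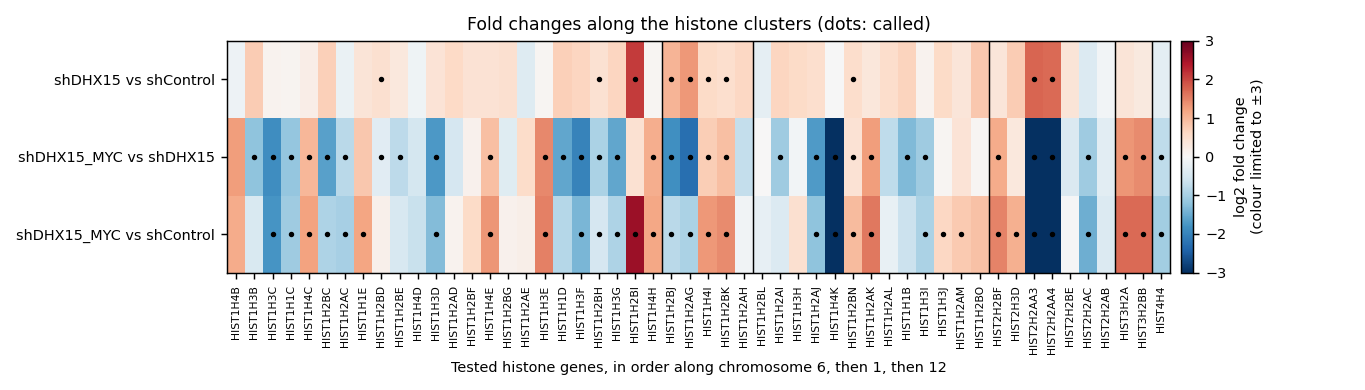
Log2 fold change (colour, limited to 3 in either direction) of the 52 tested histone genes in cluster order for the 3 comparisons, with a dot for each called gene and black lines between clusters. With the hairpin, 4 of 5 genes of the middle chromosome 6 group were called, and other calls lay in the first and last groups and in HIST2. Calls on adding MYC lie in every cluster, in both directions in all but the HIST3 cluster (2 higher) and HIST4H4 (lower).

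Head-to-head pairs of an H2A and an H2B gene with RefSeq starts at most 500 bases apart numbered 10, of which 9 had both genes tested. HIST1H2BK and HIST1H2AH also stand head to head but are not counted, since HIST1H2AH had no RefSeq promoter. Their log2 fold changes were 0.52 and 0.61 with the hairpin. On adding MYC they were 0.90 (edgeR adjusted p = 1.05e-08) and -0.71 (adjusted p = 0.102). With the hairpin, both genes rose in 1 pair (HIST1H2BJ and HIST1H2AG) and the signs matched in 5 of 9. On adding MYC the signs matched in 6 of 9 pairs, and both genes were called in the same direction in 4 pairs and in opposite directions in 0. Over all tested genes 42.1% rose and 42.6% fell in that comparison. The 4 pairs were HIST1H2BJ and HIST1H2AG and HIST1H2BC and HIST1H2AC, which fell, and HIST3H2A and HIST3H2BB and HIST1H2AK and HIST1H2BN, which rose. Exons of HIST1H2AK and HIST1H2BN overlap, so that pair may share reads. HIST2H2BE and HIST2H2AC showed unequal values, with log2 fold changes of -0.44 (edgeR adjusted p = 0.0581) and -1.07 (adjusted p = 0.000145). In shDHX15_MYC against shControl the signs matched in 9 of 9 pairs. Both genes were called there in the same direction in 4 pairs and in opposite directions in 0, where 42% of all tested genes rose and 42.5% fell.

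Genes that cut and process histone messages moved in both directions with the hairpin. Of 22 such genes 5 rose and 9 fell, where 22% and 23% of all tested genes did so, with a median log2 fold change of -0.061. SLBP read 164 to 171 CPM in shControl, 177 to 212 in shDHX15 and 135 to 139 in shDHX15_MYC, rising by 0.20 ± 0.05 with the hairpin (edgeR adjusted p = 0.00321) and falling below shControl with MYC (log2 fold change -0.28 ± 0.05, adjusted p = 5.9e-05). LSM11 read 27.6 to 31.1, 42.1 to 45 and 27.8 to 28.8 CPM, with log2 fold changes of 0.55 ± 0.05 with the hairpin (edgeR adjusted p = 4.61e-07) and -0.62 ± 0.05 on adding MYC (adjusted p = 7.64e-09). LSM10, its partner in the same particle, went the other way with the hairpin, at a log2 fold change of -0.31 ± 0.06 (edgeR adjusted p = 0.000392). CASP8AP2, a protein of the nuclear bodies where histone messages are made, rose by 0.52 with the hairpin (edgeR adjusted p = 5.4e-08) and SNRPB, a core protein of splicing particles, fell by 0.33 (adjusted p = 4.32e-07). On adding MYC 14 of the 22 rose and 7 fell, with SRRT at 0.90 and CPSF1, a subunit of the cleavage complex, at -0.92.

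Of 11 regulators of histone transcription 4 rose and 0 fell with the hairpin, against 22% and 23% of all tested genes. Among those that rose were NPAT, the coactivator of histone genes, from 38.4 to 41.5 CPM in shControl to 45.9 to 47.5 in shDHX15 (log2 fold change 0.23 ± 0.05, edgeR adjusted p = 0.000758), YY1 at 0.26 and CCNE1, the cyclin that acts with CDK2 at the start of S phase, at 0.48. On adding MYC 2 rose and 6 fell: CDC25A, a phosphatase that activates CDK2, rose by 1.5 (edgeR adjusted p = 2.55e-17), while CDK2 fell by 0.94 (adjusted p = 8.16e-15). NPAT had a log2 fold change of 0.20 ± 0.05 on adding MYC (edgeR adjusted p = 0.000801).

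Genes of DNA synthesis, which run with histone supply in dividing cells, gave no common direction with the hairpin. Of 28 genes 5 rose and 7 fell, against the same 22% and 23%, with GINS1 of the replicative helicase at 0.71 and PCNA, the sliding clamp, at -0.36, and the median was -0.0027. On adding MYC 6 rose and 19 fell with a median of -0.44, among them POLE, the catalytic subunit of a replicative polymerase, at -0.86, while CDC6, which loads the helicase, was at 0.77.

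Histone chaperones, which carry histones to DNA, rose in 7 and fell in 2 of 24 cases with the hairpin, against 22% and 23% of all tested genes. The smallest adjusted p-values among them were those of ATRX, at a log2 fold change of 0.95, and of HAT1, which acetylates new H4, at 0.36. On adding MYC 8 rose and 15 fell, with NAP1L1 at -1.23 and HIRA at -0.97. The 12 genes listed as replication-independent histones rose in 3 and fell in 5 cases with the hairpin (H3F3B 0.41, H2AFY -0.17). On adding MYC 1 rose and 9 fell. The 1 was H2AFY2, a macroH2A gene, which went from 1.62 to 2.42 CPM in shDHX15 to 21.7 to 22.0 in shDHX15_MYC (log2 fold change 3.44 ± 0.12, edgeR adjusted p = 1.17e-14), while H3F3A and H2AFV were at -1.02 and -0.99.

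Genes of histone message decay and translation numbered 22, of which 6 rose and 8 fell with the hairpin, with XRN1, a 5′ to 3′ exonuclease, at 0.49 and LSM7 at -0.62. On adding MYC 13 rose and 8 fell, with UPF2 at 0.98 and LSM4 at -1.15. Of 12 genes of ordinary polyadenylation 4 rose and 3 fell with the hairpin (RBBP6 at 0.41, CPSF6 at 0.36), and 7 rose and 4 fell on adding MYC (CSTF3 at 0.92, PCF11 at 0.77, NUDT21 at -0.60). Shares of all tested genes that rose and fell were again 22% and 23% with the hairpin, and 42.1% and 42.6% on adding MYC. Values in these lists are log2 fold changes of called genes from the same edgeR model. In every list the calls with MYC made up most of the genes, as they did over the whole table (84.7%).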

How the data were processed

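Poly(A)-selected RNA of KOPTK1 cells was sequenced as paired reads of 150 bases, per the labels' protocols. Tools listed in the submitters' processing notes are HISAT2 2.2.1, FastQC 0.11.9 and DESeq2 1.32.0, with build hg38. How reads were counted (program, annotation, strand, reads that fit several places) is not given in the sources used here. What the authors deposited are raw counts for each gene, in 1 table of 17637 genes and 9 libraries. Columns were joined to samples by name: those naming a GFP hairpin were taken as shControl, and the others, named for a hairpin by number with or without MYC, as shDHX15_MYC and shDHX15, since the labels name no other target. The levels of DHX15 and MYC bear on that join. Counts of 1 to 20 were even numbers in 71.2 to 78.5% of genes per library; whether each mate of a pair was counted on its own is not given, so limits based on counts cover counting error only, and may be too narrow.

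Genes were kept by filterByExpr of edgeR 4.0.16 (R 4.3.3), scaled by TMM factors and fitted over all 9 libraries with 1 mean per group by the quasi-likelihood model. The 2-sided p-values received the Benjamini-Hochberg adjustment over all 15309 genes tested; a gene is said to rise or fall, or to be called, at an adjusted p under 0.05. The labels do not say whether libraries came from separate cultures, so p-values measure the spread between these libraries only. The members and gene lists were chosen with earlier results of these data known. Values in every library are given for the 24 members with a mean of at least 1 CPM and for the 3 members below it with the smallest adjusted p in each comparison; other members named with values were picked after their values were seen. Of each of the 7 pathway lists, up to 2 genes with the smallest adjusted p per comparison were named, plus SLBP, NPAT, LSM10 and LSM11. A gene picked by that rule and the sequences of 1 member are not reported here. A further list, of 17 RNAs known to end without poly(A), had 0 members in the table, 2 erythroid markers read at most 0.245 CPM, and neither was used.

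Symbols were matched to GENCODE release 29 (94.9% of the table). Sequence shared between loci was measured in 100-base windows every 50 bases. On simulated counts with known changes the steps recovered 72%, 80%, 92% and 98% of genes changed 1.5, 2, 3 and 4-fold in shDHX15 against shControl (14977 genes), with 9 unchanged genes called. The changed genes were drawn from genes of all levels, so these rates do not stand for histone genes, of which 28 tested averaged under 1 CPM. Alternatives were DESeq2 1.42.0 with its size factors, total-count scaling, no filter, a filter at 1 CPM, a replicate block, scaling from genes without shared sequence, only the 6 libraries compared, and leaving out each library.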

Additional observations from a re-analysis of the deposited data

How the results depend on the processing

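Counts of called histone genes stayed within 1.5 times of the values given, except as follows. With a filter at a mean of 1 CPM, which leaves 24 histone genes for testing, 6 rose and 12 fell in shDHX15_MYC against shDHX15, and 7 rose and 11 fell in shDHX15_MYC against shControl. With 1 library left out, the counts that rose and fell ranged from 7 to 12 and 0 to 1 (shDHX15 against shControl), from 8 to 12 and 19 to 24 (shDHX15_MYC against shDHX15) and from 13 to 18 and 14 to 17 (shDHX15_MYC against shControl). Total-count scaling moved the median log2 fold change of all genes to 0.062, 0.20 and 0.28 in these comparisons, and histone genes then rose in 12, 14 and 20 cases and fell in 0, 22 and 13. Of the called histone genes picked by the naming rule, 7 of 10, 21 of 25 and 21 of 24 kept their call in every alternative (shDHX15 against shControl, shDHX15_MYC against shDHX15, shDHX15_MYC against shControl). Signs turned only for genes with a small log2 fold change in the main model, the largest being 0.21 (HIST1H4C with the hairpin). None of them was called in the comparison concerned except LSM10, at -0.20 ± 0.06 on adding MYC (edgeR adjusted p = 0.00593). With a library left out, log2 fold changes that turned ranged, with the DHX15 hairpin, from -0.0723 to 0.444 (HIST1H3C), from -0.00448 to 0.135 (HIST1H1C), from -0.00305 to 0.507 (HIST1H4C) and from -0.0931 to 0.152 (HIST1H4K). On adding MYC they ranged from -0.253 to 0.125 (HIST1H3H) and from -0.0564 to 0.157 (HIST1H3J), and in shDHX15_MYC against shControl from -0.25 to 0.0773 (HIST2H2BE) and from -0.0267 to 0.295 (HIST1H2BG). HIST1H4K with the hairpin also turned under DESeq2 (0.000458), total-count scaling (0.0642), no filter (9.08e-05) and the 6 libraries alone (0.0159). On adding MYC, HIST1H3H turned with total-count scaling (0.104) and with the filter at 1 CPM (0.00145), and LSM10 with total-count scaling (0.0030). In shDHX15_MYC against shControl, HIST2H2BE turned with total-count scaling (0.225) and the filter (0.0486), as did LSM11 (0.19, adjusted p = 0.0045, and 0.0135). The cause of these turns was not tested beyond the construction of each alternative.

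Replicate numbers are shared across groups, but same-numbered libraries did not deviate together (r from -0.0239 to 0.0412 across genes), so the numbers were not taken to pair them. With the replicate number as a block, the counts of histone genes that rose and fell were 10 and 0 (shDHX15 against shControl), 12 and 23 (shDHX15_MYC against shDHX15) and 16 and 16 (shDHX15_MYC against shControl). Depth limits what the genes under 1 CPM can show, since 3 counts correspond to 0.0519 to 0.0708 CPM.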
